A study of Mus musculus with 8 samples.

Results

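The genes described here encode the mitochondrial respiratory chain and ATP synthase. They were the rows of the array table whose RefSeq identifier carried a symbol beginning with Nduf, Uqcr, Cox4 to Cox8 or Atp5, together with Sdha, Sdhb, Sdhc and Sdhd. The rule found 90 genes, each on 1 row, among 19836 distinct symbols and 24625 rows in all. They divided into 41 genes of complex I, 4 of complex II, 8 of complex III, 20 of complex IV and 17 of ATP synthase. Ndufa4 and its relative Ndufa4l2 were counted with complex IV, in which the Ndufa4 protein is known to sit. Messenger RNA had been profiled in neutrophils from the lungs of wild-type C57BL/6J mice, labelled as 6 to 12 weeks old. The mice had received Streptococcus pneumoniae (SP, 4 samples) or phosphate-buffered saline (PBS, 4 samples) through the trachea at 2.3 µl per g, and lungs were taken at 24 h. Cells were drawn from lung digests with magnetic beads that bind Ly6G on the neutrophil surface, and each sample was read on its own array. The study treats each sample as that of a mouse, and its methods describe a check of purity only in the samples from infected mice.

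The respiratory chain is a set of protein complexes in the inner mitochondrial membrane. Complex I takes electrons from NADH and complex II from succinate, and both pass them to ubiquinone. Complex III moves them from ubiquinone to cytochrome c, and complex IV hands them to oxygen. Complexes I, III and IV pump protons, and ATP synthase lets protons flow back to make ATP. Most subunits are encoded in the nucleus, some are made from mitochondrial DNA, and the genes here are all nuclear. Neutrophils are known to draw most of their energy from glycolysis and to hold few mitochondria compared with many other cells.

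The array values are on a log2 scale and are relative within an array. Array medians lay between 6.06 and 6.20 in PBS and between 5.78 and 5.91 in SP, a mean difference of -0.28. The median of 9 neutrophil markers was 12.97 in PBS and 12.56 in SP, with 3 markers lower and 2 higher in SP. Cebpe, a factor of granulocyte maturation, was near the array medians in PBS, at a mean of 6.23, and rose by 1.79 (SE 0.28). Ly6g had no matched row, and Elane did not exceed 4.90, the highest value of Y-linked rows used as a measure of background. Many markers of epithelial, endothelial and B cells were higher in PBS, while most of those of fibroblasts and muscle were not called. All 11 ciliated cell markers fell, with a median difference of -2.69 and a summed signal of 11781 to 19672 on PBS arrays against 1663 to 2690 on SP arrays. The summed signal of 7 club cell markers, of which 6 fell, was 42735 to 54539 against 17712 to 22230. Of 10 alveolar type 2 markers 8 fell (51789 to 67844 against 17583 to 38877), of 6 alveolar type 1 markers 4 fell (6751 to 13051 against 2474 to 5544), and of 10 endothelial markers 9 fell (15394 to 30023 against 5899 to 11049). All 6 B cell markers fell (1780 to 3491 against 407 to 1101). Of 7 alveolar macrophage markers 4 fell and 1 rose (7313 to 12416 against 5457 to 8764), of 8 fibroblast markers 2 fell (6399 to 9575 against 2007 to 8282), and of 9 muscle markers 1 fell (2318 to 3706 against 2536 to 4459), with Myh6 and Nppa at background. These cells contain mitochondria, and the part of their RNA in the differences given next was not tested. A smaller number of cells of a type and less RNA per cell cannot be told apart in such samples.

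Transcripts of the respiratory chain and ATP synthase were lower in SP more often than higher, by modest amounts. A gene is called where limma gave an adjusted p no higher than 0.05, with Benjamini-Hochberg adjustment over all rows. By this rule 47 of the 90 genes fell (52.2%), 3 rose (3.33%) and 40 were not called. Over all rows 44.1% were called, 22.6% lower and 21.5% higher. Most of the 90 genes gave a bright signal, with 79 above the median row, and among rows at or above that median 36.0% were lower and 24.3% higher. The share of lower genes was thus above both backgrounds and the share of higher genes below both. The median difference of the 90 genes was -0.36 on the log2 scale (quartiles -0.57 and -0.03), against 0.10 for all rows and -0.15 for rows at or above the median signal. In 50 of the 90 genes the groups did not overlap. That share lay between the 49.0% of all rows and the share of rows at or above the median signal, 7186 of 12313. A fall of 2-fold or more was seen in 4 genes, Cox4i2, Uqcr11, Ndufc2 and Ndufa2, or 4.44%, below the 11.3% of all rows. Among the 12313 rows at or above the median signal 2479 fell by 2-fold or more. No gene of the 90 rose by 2-fold, against 6.37% of all rows and 1428 of those 12313.

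**Figure D1:**
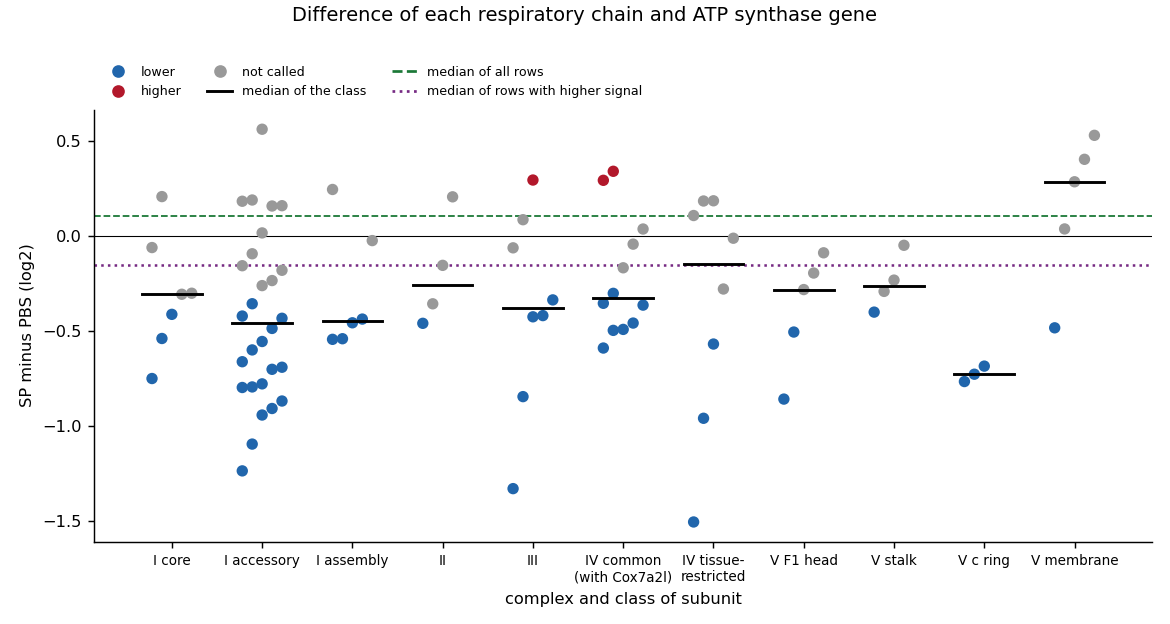
Difference between SP and PBS (log2, vertical axis) of each of the 90 genes, arranged by complex and class of subunit (horizontal axis), with 1 point per gene coloured by its call and a black bar at the class median. Points lie mostly below 0 in complex I and in the c ring, where all 3 genes were lower, while 4 of the 5 genes of ATP synthase membrane subunits lie above 0 and none of these 4 was called.

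The direction depended on how arrays were scaled. When each array was centred on its own median, 19 of the 90 genes were lower and 21 higher, and over all rows 16.4% were lower and 57.7% higher. That scaling moved the median difference of all rows from 0.10 to 0.38. Centring adds the same amount to the difference of every row. The 90 genes therefore lay 0.46 below the median of all rows in both scalings by arithmetic (-0.36 against 0.10, and -0.08 against 0.38). With another quantile normalization, their median minus that of all rows was -0.34. With rows below the median signal left out, it was -0.21 for the 79 genes that remained. The 19 genes lower after centring were the 19 that were called lower in each of the 16 alternative analyses, or each of those in which they were fitted. They comprised 10 genes of complex I, 2 of complex III, 3 of complex IV and 4 of ATP synthase.

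On the deposited scale the fall was spread over arrays rather than carried by a single one. The mean deviation of the 90 genes from their row means was 0.22, 0.22, 0.12 and 0.10 on PBS replicates 1 to 4, and -0.18, -0.14, -0.26 and -0.07 on SP replicates 1 to 4. All PBS arrays lay above all SP arrays on that scale. Relative to each array's own median they did not. The mean of the 90 genes lay no farther above that median on PBS replicate 4 (8.95 against 6.09) than on SP replicate 4 (8.79 against 5.91). SP replicate 3 was lowest, and its mean over all rows was also the lowest, at -0.06. Rows at or above the median signal deviated by 0.10, 0.06, 0.07 and 0.08 on PBS replicates 1 to 4. On SP replicates 1 to 4 they deviated by -0.06, -0.01, -0.27 and 0.02. On SP replicate 3 the 90 genes were thus no lower than rows with higher signal. With SP replicate 3 left out, 45 of the 90 genes were lower and 3 higher. With PBS replicate 2 and SP replicate 3 both left out, a setting added after the data were seen, 42 were lower and 4 higher.

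**Figure D2:**
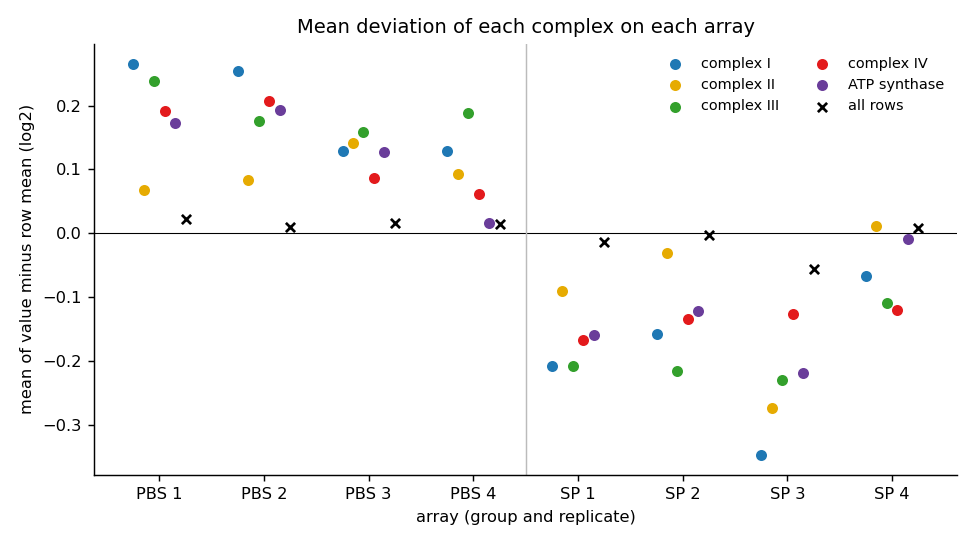
Mean over genes of the value minus the row mean (log2, vertical axis) for each complex and for all rows on each of the 8 arrays (horizontal axis, PBS left and SP right). Complexes I, III and IV and ATP synthase lie above 0 on each PBS array and below 0 on each SP array. Complex II lies at 0.01 on SP replicate 4, and all rows together stay between -0.06 and 0.02. Rows at or above the median signal, not drawn, lie at -0.27 on SP replicate 3.

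Promoter windows from RefSeq (GRCm38.p6) were available for 73 of the 90 genes, as 250 bases before and 50 bases after a transcription start. Genes of the chain are textbook targets of nuclear respiratory factor 1 (NRF1), of the ETS family factor GABP and of YY1. A short motif for each was searched on both strands of these windows, with 1 window per gene. CGCATGCG, an NRF1 core that reads the same on both strands, was in the windows of 10 of the 73 genes (13.7%), against 2.73% of the 15442 genes that have both a symbol on the array and a window and 1.91% of all 27025 genes with a window. CCGGAAGT, an ETS motif, was in 5 (6.85%), against 5.61% and 3.99%. AAGATGGCG, a YY1 motif, was in 6 (8.22%), against 2.07% and 1.48%. Of the 38 genes with a window that fell, 7 held the NRF1 motif, 3 the ETS motif and 5 the YY1 motif. Of the 32 that were not called, 3, 2 and 1 did, and none of the 3 that rose did. Such matches are descriptions of letters in the windows. No motif overlapped another in the sequences printed next.

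The 250 bases before the start are given for 3 genes that fell. Uqcr11 and Ndufc2 are those with the largest falls among genes with a window, and Atp5g2 stands for the c ring, all of whose genes fell. No other annotated gene overlaps these bases. Motifs are in capitals and all other bases in lower case, 5′ to 3′ on the strand of the gene. The Uqcr11 bases lie at chr10:80406822-80407071 on the minus strand, with the ETS motif starting 66 bases before the start. An NRF1 motif of Uqcr11 crosses the start itself and is therefore not complete in this run. The Ndufc2 bases lie at chr7:97399753-97400002 on the plus strand and hold none of the 3 motifs. The Atp5g2 bases lie at chr15:102671048-102671297 on the minus strand, with the NRF1 motif starting 41 bases before the start.
Uqcr11: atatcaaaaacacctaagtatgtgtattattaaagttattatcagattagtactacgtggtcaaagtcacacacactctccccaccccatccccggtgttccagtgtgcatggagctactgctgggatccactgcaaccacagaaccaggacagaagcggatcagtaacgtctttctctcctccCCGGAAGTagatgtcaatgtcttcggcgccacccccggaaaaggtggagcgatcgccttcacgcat
Ndufc2: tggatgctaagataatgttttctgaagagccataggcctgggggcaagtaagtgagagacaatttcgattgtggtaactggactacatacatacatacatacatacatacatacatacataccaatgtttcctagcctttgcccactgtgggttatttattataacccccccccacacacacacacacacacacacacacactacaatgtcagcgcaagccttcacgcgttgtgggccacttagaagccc
Atp5g2: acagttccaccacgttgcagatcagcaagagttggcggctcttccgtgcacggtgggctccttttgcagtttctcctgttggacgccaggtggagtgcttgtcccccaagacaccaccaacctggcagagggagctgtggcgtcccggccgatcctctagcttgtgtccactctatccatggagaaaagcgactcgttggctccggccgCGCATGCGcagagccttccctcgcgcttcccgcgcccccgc

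Complex I had the lowest median difference of the 5 groups, at -0.43 (41 genes), although another quantile normalization put it at -0.31 and complex III at -0.51. Of its genes 24 fell (58.5%), 17 were not called and none rose. Over all rows 22.6% were lower, and among rows at or above the median signal 36.0%. The accessory subunits, which surround the catalytic core, fell in 17 of 28 cases (60.7%), with a median of -0.46. Among the 7 nuclear core subunits, which carry the redox centres, 3 fell (42.9%), with a median of -0.31. Among the 6 Ndufaf assembly factors, which help build the complex and are not part of it, 4 fell (66.7%), with a median of -0.45.

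Ndufc2, an accessory subunit of the membrane arm (NM_024220), had the largest fall of complex I. Its values were 12.03, 12.24, 11.67 and 11.80 on PBS arrays and 10.60, 10.65, 10.38 and 11.15 on SP arrays. All SP values lay below all PBS values, with SP replicate 4 nearest to PBS. The means were 11.94 ± 0.25 and 10.70 ± 0.33 (SD, n = 4 each), a difference of -1.24 (SE 0.18, limma adjusted p = 0.00101), or 2.36-fold lower. Ndufa2, an accessory subunit of the matrix arm (NM_010885), read 9.50, 9.33, 9.45 and 9.65 in PBS and 8.49, 8.56, 7.93 and 8.56 in SP. The groups were apart and SP replicate 3 was low even among SP arrays. The difference was -1.10 (SE 0.15, limma adjusted p = 0.000698), or 2.14-fold lower. Ndufb11, an X-linked accessory subunit of the membrane arm (NM_019435), read 10.35, 10.10, 10.26 and 10.34 in PBS and 9.14, 9.05, 9.70 and 9.39 in SP. It fell by 0.94 on the log2 scale (SE 0.14, limma adjusted p = 0.00116), with no overlap.

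Of the core subunits, Ndufs7, which holds the last iron-sulphur cluster before ubiquinone (NM_029272), read 11.35, 11.34, 11.16 and 11.42 in PBS and 10.67, 10.81, 10.02 and 10.75 in SP. It fell by 0.75 (SE 0.17, limma adjusted p = 0.00853), and SP replicate 3 was the lowest by a wide gap. Ndufv1, the flavin subunit that accepts electrons from NADH, fell by 0.41 (SE 0.13). The core subunits that were not called had differences between -0.31 and 0.21, with Ndufs8 the highest. The mean deviation of the 7 core subunits was -0.56 on SP replicate 3, against -0.06, -0.03 and 0.03 on the other SP arrays.

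Other accessory subunits that fell by more than 0.65 were Ndufa11 (-0.91), Ndufc1 (-0.87), Ndufab1, also the mitochondrial acyl carrier protein (-0.80), Ndufb2 (-0.80), Ndufb5 (-0.78), Ndufb4 (-0.70), Ndufv3 (-0.69) and Ndufs5 (-0.66). Of these, Ndufab1 and Ndufs5 lost their calls in 7 and 6 of the 16 alternative analyses, and Ndufv3 in 2. Ndufa1, an X-linked subunit of the membrane arm, had the highest difference of complex I. It read 7.39, 7.26, 7.87 and 7.13 in PBS and 7.61, 7.84, 8.48 and 7.97 in SP. The groups overlapped through PBS replicate 3, and the difference of 0.56 (SE 0.21) was not called (limma adjusted p = 0.0623). It was called higher in 5 of the 16 alternative analyses. Of the assembly factors, Ndufaf4 (-0.55), Ndufaf2 (-0.54), Ndufaf6 (-0.46) and Ndufaf3 (-0.44) fell. The groups of Ndufaf6 overlapped, and its call was lost in 9 of the 15 alternative analyses that fitted it. Ndufaf5 and Ndufaf1, at -0.03 and 0.24, were not called.

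**Figure D3:**
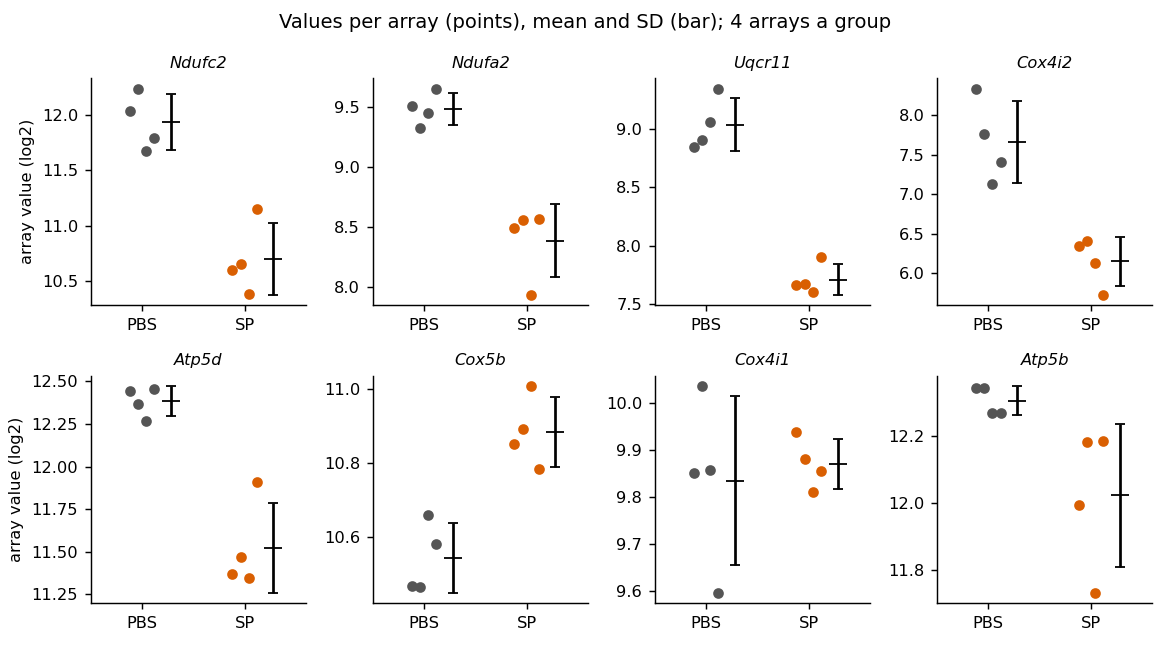
Values on the log2 scale (vertical axes, each with its own range that does not start at 0) of 8 genes on the 4 PBS arrays and 4 SP arrays (points), with the mean and SD of each group (bars). Ndufc2, Ndufa2, Uqcr11, Cox4i2 and Atp5d are lower on each SP array than on any PBS array, Cox5b is higher on each, the groups of Cox4i1 overlap, and those of Atp5b are apart without a call.

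Complex II, succinate dehydrogenase, has only 4 genes and also serves the tricarboxylic acid cycle. The median difference was -0.26. Sdha, the flavoprotein that oxidises succinate (NM_023281), read 10.63, 10.68, 10.71 and 10.52 in PBS and 10.23, 10.39, 9.70 and 10.38 in SP. It fell by 0.46 (SE 0.15, limma adjusted p = 0.041) with no overlap, and SP replicate 3 was the lowest. This call was lost in 8 of the 16 alternative analyses. Sdhb, the iron-sulphur subunit (NM_023374), read 9.82, 9.72, 9.93 and 9.91 in PBS and 9.67, 9.63, 9.83 and 9.64 in SP. Its groups overlapped and the difference of -0.16 (SE 0.08) was not called (limma adjusted p = 0.142). The membrane anchors Sdhc (NM_025321) and Sdhd (NM_025848) were not called either, at -0.36 (SE 0.16) and 0.21 (SE 0.12). Whether the 4 subunits differed from each other was not tested.

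Complex III showed 5 genes that fell (62.5%) and 1 that rose (12.5%) among 8, with a median of -0.38. Over all rows 22.6% were lower and 21.5% higher, and among rows at or above the median signal 36.0% and 24.3%. Uqcr11, one of its small subunits (NM_025650), had the lowest adjusted p of the 90 genes. It read 8.84, 8.90, 9.06 and 9.35 in PBS and 7.66, 7.67, 7.60 and 7.90 in SP. The SP arrays lay close together and almost 1 log2 unit below the lowest PBS array. The means were 9.04 ± 0.23 and 7.71 ± 0.13 (SD, n = 4 each), a difference of -1.33 (SE 0.13, limma adjusted p = 9.43e-05), or 2.52-fold lower. Uqcrb, the ubiquinone-binding small subunit (NM_026219), read 11.57, 11.42, 11.19 and 11.38 in PBS and 10.55, 10.40, 10.39 and 10.84 in SP. It fell by 0.85 (SE 0.13, limma adjusted p = 0.000988) with no overlap.

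The core proteins of complex III fell by similar amounts, Uqcrc2 (NM_025899) by 0.43 (SE 0.09) and Uqcrc1 by 0.42 (SE 0.13). The groups of Uqcrc1 overlapped, and its call was lost in 7 of the 16 alternative analyses. Uqcrc2 read 11.44, 11.31, 11.27 and 11.17 in PBS and 10.80, 10.90, 10.75 and 11.03 in SP, with no overlap. Uqcrh, the hinge protein of the cytochrome c1 region, fell by 0.34 (SE 0.07). Uqcrfs1, the Rieske iron-sulphur protein that takes electrons from ubiquinol (NM_025710), went the other way. It read 6.82, 6.50, 6.67 and 6.52 in PBS and 6.88, 6.86, 7.08 and 6.87 in SP. The gap between the groups was small, and the difference of 0.29 (SE 0.10) passed the test at limma adjusted p = 0.0405. That call was lost in 10 of the 16 alternative analyses. Uqcr10 and Uqcrq, at -0.06 and 0.08, were not called.

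Complex IV, cytochrome c oxidase, contains subunits found in most cells and isoforms that replace them in particular tissues. Among 11 common subunits 6 fell (54.5%), 2 rose (18.2%) and 3 were not called, with a median of -0.30. Among rows at or above the median signal 36.0% were lower and 24.3% higher, and among all rows 22.6% and 21.5%. The largest fall among the common subunits was in Cox6c (NM_053071). It read 11.91, 11.97, 11.77 and 11.89 in PBS and 11.10, 11.17, 11.46 and 11.47 in SP, with no overlap and a difference of -0.59 (SE 0.11, limma adjusted p = 0.0027). Cox6a1 (-0.50), Ndufa4 (-0.49), Cox7c (-0.37), Cox7b (-0.36) and Cox6b1 (-0.30) also fell. Cox7c (NM_007749) read 12.06, 12.19, 12.03 and 12.00 in PBS and 11.62, 11.64, 11.79 and 11.78 in SP. The call for Ndufa4, whose groups overlapped, was lost in 12 of the 16 alternative analyses.

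Cox5b and Cox7a2 were the common subunits that rose. Cox5b, a nuclear subunit on the matrix side that binds zinc (NM_009942), read 10.47, 10.47, 10.66 and 10.58 in PBS and 10.85, 10.89, 11.01 and 10.78 in SP. Each SP array exceeded each PBS array, and the difference was 0.34 (SE 0.08, limma adjusted p = 0.0106). It missed the test only with another quantile normalization (0.17, adjusted p = 0.0655, with a range of 0.00226 to 0.0655 over the alternative analyses). Cox7a2 (NM_009945) read 9.89, 10.01, 9.82 and 9.74 in PBS and 10.18, 10.26, 10.18 and 10.02 in SP, a difference of 0.29 (SE 0.09, limma adjusted p = 0.0267), lost in 8 of the alternative analyses. Cox8a (NM_007750), at 11.71 ± 0.04 in PBS and 11.54 ± 0.04 in SP (SD, n = 4 each), had groups that did not overlap, yet its difference of -0.17 was not called (limma adjusted p = 0.062). Cox5a and Cox4i1 were at -0.04 and 0.04, with overlap.

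Among the 8 tissue-restricted isoforms 3 fell (37.5%), against 22.6% of all rows and 36.0% of rows at or above the median signal. Cox4i2, an isoform of subunit 4 known for its expression in lung and its link to oxygen level (NM_053091), had the largest fall of the 90 genes. It read 8.34, 7.76, 7.13 and 7.41 in PBS and 6.34, 6.41, 6.13 and 5.73 in SP. PBS arrays spread over more than 1 log2 unit, and none reached down to the SP arrays. The means were 7.66 ± 0.52 and 6.15 ± 0.31 (SD, n = 4 each), a difference of -1.51 (SE 0.26, limma adjusted p = 0.00227), or 2.84-fold lower. Over the same arrays the summed signal of 10 endothelial markers fell from between 15394 and 30023 to between 5899 and 11049. Those of ciliated, club, alveolar and B cell markers fell too. That of 9 muscle markers was 2318 to 3706 in PBS and 2536 to 4459 in SP. The part of any of these cells in the fall of Cox4i2 was not tested. Cox6a2, the heart and skeletal muscle isoform of subunit 6a (NM_009943), read 6.81, 7.13, 6.96 and 7.02 in PBS and 6.16, 6.04, 5.53 and 6.35 in SP. It fell by 0.96 (SE 0.17, limma adjusted p = 0.00238). Cox6b2, known from testis (NM_001289848), fell by 0.57 (SE 0.13). The muscle isoform Cox7a1 and the isoforms Ndufa4l2, Cox8b, Cox8c and Cox7b2 were not called, with differences between -0.28 and 0.18. Cox8b did not exceed 4.90 on any array, the top of the background range, so that its values carry no measurable change.

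Whether isoforms of 1 subunit changed unequally was asked with the log2 ratio within each array, which does not depend on array centring. With 4 arrays against 4 there are 70 arrangements, and the smallest two-sided p that an exact permutation test can give is 0.0286. After adjustment over the 12 pairs the smallest value was 0.0571, reached by 6 pairs, so no pair passed 0.05. Those 6 pairs were at the smallest p the test can give. Whether such a pair passes depends on how many others also reach that p, however large its own change. The adjusted values therefore cannot decide whether any of these 6 pairs changed unequally. In 3 of these 6 pairs the isoform was at or near background. The ratio of Cox4i2 to Cox4i1 was -1.51, -2.27, -2.72 and -2.19 on PBS arrays and -3.60, -3.47, -3.68 and -4.13 on SP arrays. It was lower on every SP array, by 1.54 in the mean (95% interval -2.25 to -0.84). The intervals given for ratios are t intervals of single pairs, not adjusted over the 12 pairs and separate from the permutation tests. Cox7a2l, a factor that joins complexes III and IV into supercomplexes, fell by 0.46 (SE 0.09, limma adjusted p = 0.00457), and its ratio to Cox7a2 differed by -0.75 (95% interval -1.003 to -0.50). That call of Cox7a2l was lost with another quantile normalization and with centring. Cox7a1 against Cox7a2 differed by -0.30 (-0.54 to -0.07). Cox7a1 itself was at -0.01, with means of 5.35 in PBS and 5.34 in SP, while Cox7a2 rose by 0.29. Cox6a2 against Cox6a1 was at -0.46 (-1.04 to 0.11) and Cox6b2 against Cox6b1 at -0.27 (-0.63 to 0.09). Cox8b exceeded 4.90, the top of the background range, on no array, Cox7b2 and Cox8c on 1 SP array each and Ndufa4l2 on 2 PBS arrays. The ratios of these 4 isoforms to their partners therefore measure no change in the isoform.

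**Figure D4:**
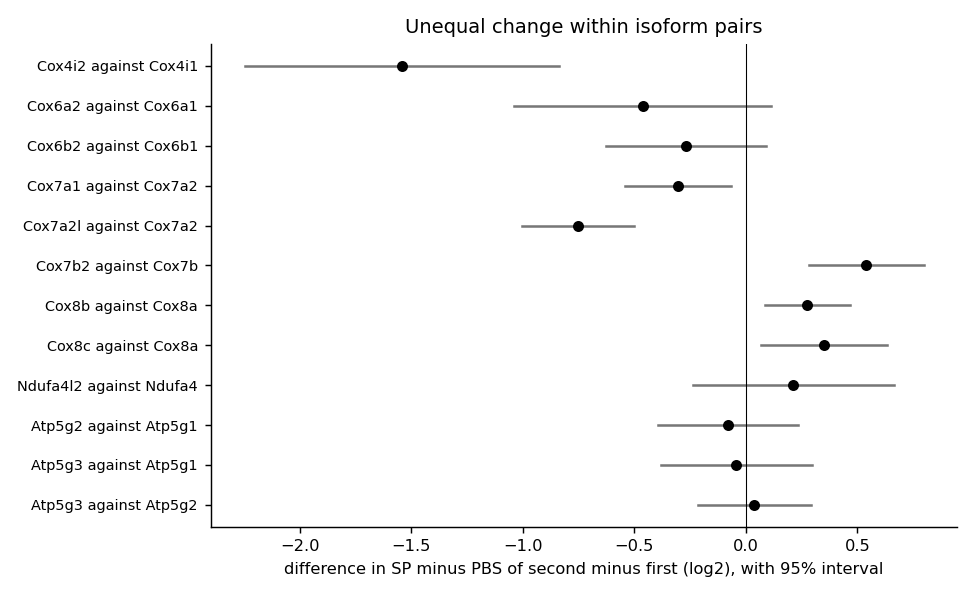
Difference between SP and PBS in the log2 ratio of the second to the first isoform (horizontal axis) for 12 pairs (vertical axis). Points are mean differences and lines are 95% t intervals of single pairs, not adjusted over the pairs. Cox4i2 against Cox4i1 lies farthest from 0 at -1.54, the 3 pairs of c subunit genes lie within 0.09 of 0, and the points of Cox7b2, Cox8b, Cox8c and Ndufa4l2 rest on isoforms at or near background.

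In ATP synthase 7 of 17 genes fell (41.2%), none rose and the median was -0.28. The share of lower genes was near the 36.0% of rows at or above the median signal, and above the 22.6% of all rows. With arrays centred on their median 4 genes were lower and 4 higher. The head, F1, makes ATP from ADP and phosphate. Atp5d, the delta subunit of its rotating stalk (NM_025313), read 12.45, 12.37, 12.27 and 12.46 in PBS and 11.37, 11.47, 11.35 and 11.91 in SP. SP replicate 4 was the closest to PBS, without overlap, and the difference was -0.86 (SE 0.13, limma adjusted p = 0.00115), or 1.82-fold lower. Atp5a1, the alpha subunit, fell by 0.51 (SE 0.16), a call lost in 9 of the alternative analyses. Atp5b, the catalytic beta subunit (NM_016774), read 12.34, 12.34, 12.27 and 12.27 in PBS and 11.99, 12.18, 11.73 and 12.18 in SP. Its groups were apart, and the difference of -0.28 (SE 0.11) was not called (limma adjusted p = 0.0651). Atp5c1 and Atp5e, the gamma and epsilon subunits, were not called, at -0.20 and -0.09.

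The c ring, which turns as protons pass, is built from 1 protein that 3 genes encode. The mature protein is the same, and the genes differ in the targeting sequence that is cut off. All 3 fell, with similar differences. Atp5g1 (NM_001161419) read 11.21, 11.03, 10.86 and 11.13 in PBS and 10.32, 10.44, 10.03 and 10.70 in SP, a difference of -0.69 (SE 0.15, limma adjusted p = 0.00603). Atp5g2 (NM_026468) read 11.36, 11.59, 11.05 and 11.08 in PBS and 10.49, 10.56, 10.13 and 10.84 in SP, a difference of -0.77 (SE 0.17, limma adjusted p = 0.00832). Atp5g3 (NM_175015) read 10.51, 10.61, 10.23 and 10.20 in PBS and 9.50, 9.57, 9.56 and 9.998 in SP, a difference of -0.73 (SE 0.14, limma adjusted p = 0.00414). SP replicate 4 was the highest SP array in all 3, and no SP array reached the PBS range. The ratios between them differed by -0.08 (95% interval -0.39 to 0.23) for Atp5g2 against Atp5g1, by -0.04 (-0.38 to 0.30) for Atp5g3 against Atp5g1 and by 0.04 (-0.22 to 0.29) for Atp5g3 against Atp5g2. Probes of near-identical genes can share signal, and whether the custom probe mappings removed shared probes is not given in the sources used here.

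The peripheral stalk, which holds the head still, had 1 gene that fell of 4 (25%), near the 22.6% of all rows. That gene was Atp5h, the d subunit, at -0.40 (SE 0.09), while Atp5o, Atp5j and Atp5pb were at -0.29, -0.23 and -0.05. Among 5 small membrane subunits, which shape the dimer and the inner membrane, Atp5j2 fell by 0.48 (SE 0.09, limma adjusted p = 0.00264). The other 4 had positive differences that were not called. Atp5k read 7.67, 8.27, 7.99 and 7.69 in PBS and 8.43, 8.21, 8.91 and 8.18 in SP, a difference of 0.53 (SE 0.20, limma adjusted p = 0.0559). Atp5l was at 0.40 (SE 0.15, limma adjusted p = 0.0528), Atp5mpl at 0.28 and Atp5md at 0.04. Atp5k was called higher in 6 and Atp5l in 4 of the alternative analyses, and Atp5md turned negative in 2.

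Other genes of mitochondrial energy metabolism were counted in 10 lists. Their shares stand beside 22.6% lower and 21.5% higher over all rows. Among rows at or above the median signal these were 36.0% and 24.3%. Centring arrays on their median would add 0.28 to each difference given here, so that those between -0.28 and 0 turn positive. Of 17 genes of the tricarboxylic acid cycle and pyruvate dehydrogenase 12 fell (70.6%) and 1 rose (5.88%). Their median was -0.69, where the medians of the complexes were -0.43 to -0.26. Suclg2, a subunit of succinyl-CoA ligase, fell by 1.29 (SE 0.19, limma adjusted p = 0.000939), and Idh2, the NADP-linked isocitrate dehydrogenase, fell by 2.15 (SE 0.35, limma adjusted p = 0.00163). Dld, shared by several dehydrogenase complexes, rose by 0.65 (SE 0.17). Of 15 electron carriers and other quinone reductases 8 fell (53.3%) and 3 rose (20%). Cyct, among those that rose, was near 4.90, the top of the background range, with means of 4.66 in PBS and 4.93 in SP. Etfb and Etfa, the electron transfer flavoprotein that brings electrons from fatty acid oxidation, fell by 1.19 (SE 0.15) and 0.84 (SE 0.16). Cycs, cytochrome c, which carries electrons from complex III to complex IV, rose by 0.43 (SE 0.10, limma adjusted p = 0.00997).

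Assembly factors did not move as one. Sdhaf1, which helps the iron-sulphur subunit Sdhb of complex II to mature, rose by 3.51 on the log2 scale (SE 0.17, limma adjusted p = 4.9e-06), from a mean of 7.57 in PBS to 11.08 in SP, while none of the 4 Sdh genes was called higher. Sdhaf3 fell by 0.52 and Sdhaf4 was not called. For complex I beyond the Ndufaf genes, 3 of 7 fell (42.9%), including Tmem186 (-0.41) and Acad9 (-0.53). For complex III, 2 of 5 fell (40%) and 1 rose (20%). Bcs1l, which inserts the Rieske protein, fell by 1.08 (SE 0.18) and Ttc19 rose by 0.75 (SE 0.09). For complex IV, 3 of 18 fell (16.7%) and 4 rose (22.2%), against 22.6% and 21.5% of all rows. Cox15, which makes haem a, rose by 0.83 (SE 0.09) and Coa5 by 0.90 (SE 0.12). Sco2, a copper chaperone, fell by 2.27 (SE 0.32), the largest difference in that list, and Cox16 fell by 1.15 (SE 0.23). Cox17 rose by 1.38 (SE 0.33). Of 4 genes of ATP synthase assembly and inhibition 2 fell (50%) and 1 rose (25%). Atpif1, the natural inhibitor of ATP synthase, fell by 1.28 (SE 0.11, limma adjusted p = 6.24e-05), and Atpaf1 fell by 0.77 (SE 0.14).

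Of 77 genes of the mitochondrial ribosome, which translates the subunits encoded in mitochondrial DNA, 21 fell (27.3%) and 9 rose (11.7%), with a median of -0.24. The share of lower genes lay between the 22.6% of all rows and the 36.0% of rows at or above the median signal, and so near the background. The lowest adjusted p values were of genes that rose, Mrpl52 by 1.53 (SE 0.12) and Mrpl30 by 1.30 (SE 0.10). Of 7 carriers and channels of adenine nucleotides, phosphate and protons 4 fell (57.1%) and 1 rose (14.3%). Vdac1, a channel of the outer membrane, fell by 1.02 (SE 0.18), and Slc25a3, the phosphate carrier, by 0.43 (SE 0.08). Vdac2, a relative of Vdac1, was the gene that rose, by 0.48 (SE 0.13). Of 14 regulators of mitochondrial biogenesis 3 fell (21.4%) and 5 rose (35.7%). The share of lower genes was near the 22.6% of all rows, and 21.5% of all rows were higher. Nrf1, Gabpa and Gabpb1, which encode NRF1 and both subunits of GABP, rose by 0.50 (SE 0.12), 0.90 (SE 0.12) and 0.96 (SE 0.21). Polg rose by 0.41 (SE 0.11), while Tfb1m fell by 1.33 (SE 0.34) and Polg2 by 0.74 (SE 0.24). Ppargc1a, the coactivator that drives respiratory genes in many tissues, fell by 1.63 (SE 0.17, limma adjusted p = 0.000176). Esrra, an orphan receptor that Ppargc1a coactivates, rose by 1.36 (SE 0.12, limma adjusted p = 7.51e-05).

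**Figure D5:**
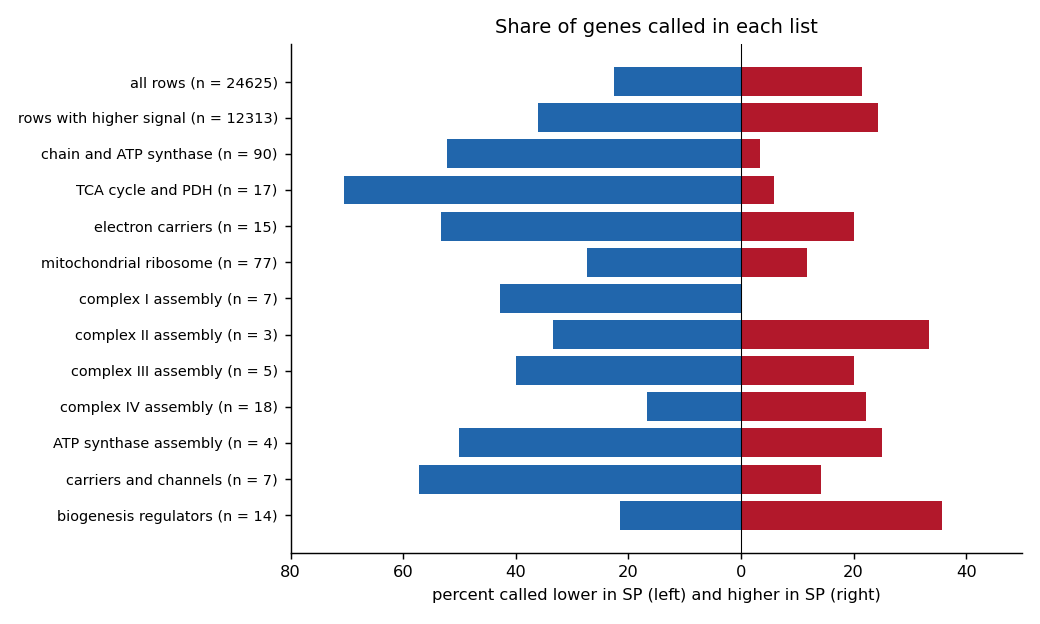
Percent of genes called lower in SP (bars to the left) and higher in SP (bars to the right) among all rows, rows at or above the median signal, the 90 genes of the chain and ATP synthase, and 10 lists of related genes (vertical axis, with the number of genes). The 90 genes show 52.2% lower and 3.33% higher, the tricarboxylic acid cycle list 70.6% and 5.88%, and the regulators 21.4% and 35.7%.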

How the data were processed

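Each of the 8 samples was hybridised to an Affymetrix Mouse Gene 1.1 ST array. The deposited values are log2 expression values. Per the methods, the authors made them by robust multi-array averaging, in which background was corrected, probe sequence and GC content were adjusted for, arrays were quantile normalized and probes were summarised by median polish under custom probe mappings. The submitters' processing notes name Affymetrix Expression Console, RMA and Partek. Such values are relative within an array, so that a change in total RNA per cell cannot be read from them, and bright signals may be compressed. Array number limits the precision.

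Groups and replicate numbers followed the sample titles. Identifiers were matched, without versions, to RefSeq genes of GRCm38.p6, and 19915 of 24625 rows (80.9%) received a symbol. Protein-coding genes that meet the symbol rule but have no matched row (Ndufa3, Ndufaf7, Ndufaf8, Ndufb1, Ndufb4b and Ndufb4c) were not analysed here. The result of 1 gene that is counted among the 90 is not reported here. Rows were tested with limma (version 3.58.1, R 4.3.3; lmFit and eBayes, two-sided, no covariates, Benjamini-Hochberg adjustment over all rows), in place of the study's one-way ANOVA, which was run as an alternative.  Isoform ratios were compared with exact permutation tests (SciPy 1.17.1). On simulated data with the spread of these rows, limma recovered 88 of 100 rows changed by 1.5 log2 units and 55 of 100 changed by 0.75, with 11 false calls. Only these rows among 24625 were changed there, with independent noise, while 44.1% of the real rows were called. The simulated rates therefore need not hold for the real comparison. Same-numbered samples did not deviate together (4 pairs, correlations -0.27 to 0.35), so no pairing was used.

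The members and all gene lists were chosen with earlier results of these data known. Genes named were the Sdh genes, per complex the 2 with the highest mean signal, the 3 largest falls and the 2 largest rises among called genes, both genes of each isoform pair, per list the 2 lowest adjusted p values, and members of classes of 5 or fewer. Cell type markers are given as lists, without naming the brightest of each. Other genes named were chosen after their values were seen. The 16 alternative analyses comprised array weights, a block for the replicate number, the methods' t-test, a second quantile normalization, centring of each array on its median, a robust prior with intensity trend, 1 row per symbol, rows below the median signal left out, and each of the 8 samples left out in turn. Leaving out PBS replicate 2 and SP replicate 3 together was added after seeing the data. Figures were drawn with Python 3.11.15 and matplotlib 3.10.9.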

Additional observations from a re-analysis of the deposited data

Results flagged for a closer look

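Among 72 groups of 4 arrays tested for a single array far from the others, 5 exceeded the 95% critical value of Dixon's ratio, and chance alone gives about 1 in 20. In 4 of them the array was SP replicate 3. It read 7.93 for Ndufa2, below the other SP arrays at 8.49 to 8.56. It read 9.83 for Sdhb (others 9.63 to 9.67), 7.08 for Uqcrfs1 (others 6.86 to 6.88) and 5.14 for Cox8c (others 4.65 to 4.72). In the fifth, SP replicate 4 read 9.998 for Atp5g3, above the other SP arrays at 9.50 to 9.57. SP replicate 3 was thus low for Ndufa2 and high for the other 3 genes.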

How the results depend on the processing

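Of 50 called genes, 19 kept their call and direction in all of the 16 alternative analyses that fitted them, and none of the 50 reversed. Centring each array on its median gave 40 called genes, 19 lower and 21 higher, and 2 lower at 2-fold or more. Under it the median differences were -0.0757 for all 90 genes, -0.153 for complex I, 0.0241 for complex II, -0.098 for complex III, -0.0107 for complex IV and -0.00221 for ATP synthase. Another quantile normalization gave 6 higher genes, 7 lower at 2-fold or more, and medians of -0.31 for complex I, -0.51 for complex III and -0.45 for ATP synthase. Array weights gave 9 higher genes and the robust prior with an intensity trend 1. Without PBS replicate 2 and SP replicate 3, the median of complex III was -0.31. Leaving out each sample in turn gave 36 to 49 lower genes, 1 to 5 higher genes (1 without PBS replicate 4 or SP replicate 2, and 5 without SP replicate 4), and a median of -0.39 to -0.31. With the replicate block 43 genes were lower and 4 higher, with 42 of the 47 lower genes shared. Not counting called genes, Cox7a1 turned to 0.27 with centring, 0.0124 with array weights and 0.00133 without PBS replicate 2 and SP replicate 3. It ranged from -0.0512 (without SP replicate 1) to 0.0358 (without SP replicate 2) with single samples left out. Cox8a turned to 0.11, Sdhb to 0.13 and Ndufa4l2 to 0.000748 with centring. Cox4i1 turned to -0.0608 with another quantile normalization and ranged from -0.0438 (without PBS replicate 4) to 0.102 (without PBS replicate 2) with single samples left out. That normalization also turned Cox8b to -0.0442, the ratio of Ndufa4l2 to Ndufa4 to -0.0569 and that of Atp5g3 to Atp5g1 to 0.00516. The methods' t-test called 40 genes lower and 3 higher. The cause of each shift was not tested, other than that centring adds 0.28 to each difference. Small differences of dim genes are limited by signal over background.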
